A study of Homo sapiens with 6 samples.

Results

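The ISGylation machinery is the set of 6 genes that encode the ubiquitin-like modifier ISG15, its activating enzyme UBA7, its conjugating enzyme UBE2L6, the HERC-type proteins HERC5 and HERC6, and the protease USP18. They were taken as the rows of the deposited count table with these 6 symbols, out of 60662 genes, and all 6 passed the filter on low counts. RNA was measured in DU-145, a line of human prostate cancer cells that stably carried tet-MUCshRNA, a doxycycline (DOX)-inducible hairpin directed at the mucin gene MUC1. The DOX-positive group (n = 3) received DOX for 7 days and the DOX-negative group (n = 3) received vehicle for 7 days. Both groups were then stimulated with 10 ng/ml interferon-gamma (IFN-gamma) for 24 hours, so every library comes from stimulated cells of 1 line. The comparison asks how the expression of the machinery in IFN-gamma-treated cells differed once the hairpin had been induced, and it measures DOX and the hairpin together. Unstimulated cells and DOX-treated cells without this hairpin were not analysed here.

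ISGylation works as a cascade like that of ubiquitin. UBA7 activates ISG15, UBE2L6 receives it, and a ligase, in human cells mainly HERC5, places it on target proteins, many of them newly made. USP18 removes ISG15 from proteins again, and separately from this activity it binds the type I interferon receptor chain IFNAR2 and restrains its signal. All of these genes are known as interferon-induced genes, and free ISG15 is also secreted and acts on leukocytes that carry the integrin LFA-1. The values here are mRNA levels, and ISG15 conjugates were not measured.

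Libraries held between 87739734 and 150921436 reads, of which between 42312 and 83845 lay on the 6 genes. MUC1 averaged 1.39 ± 0.123 CPM (reads scaled to a common library size, here with TMM, which balances the libraries' composition) in DOX-positive cells and 21.5 ± 0.963 CPM in DOX-negative cells (SD, n = 3 each), which goes with the labels. The epithelial markers KRT8, KRT18, KRT19, EPCAM and CDH1 were present in every library and all 5 were higher in DOX-positive cells, with summed levels of 2261 to 2350 CPM in DOX-positive and 813.1 to 863.6 CPM in DOX-negative libraries. Their part in the results was not tested. Of the prostate luminal markers, KLK3 had 0 reads in all libraries, and the whole list of 4 lay between 0.0900 and 0.101 CPM in DOX-positive and between 0.0954 and 0.151 CPM in DOX-negative libraries. Markers of other cells were low. The leukocyte markers summed to 0.285 to 0.374 CPM in DOX-positive and 0.164 to 0.208 CPM in DOX-negative libraries, with CD3E at 0 in all, and the endothelial markers to 0.303 to 0.360 CPM in DOX-positive and 0.312 to 0.436 CPM in DOX-negative libraries. The fibroblast markers summed to 4.51 to 4.91 CPM in DOX-positive and 6.12 to 7.09 CPM in DOX-negative libraries. From bulk RNA, fewer cells that express a gene and less of its RNA per cell cannot be told apart.

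All 6 genes were lower in DOX-positive cells, by 1.18-fold to 2.70-fold. UBA7 fell most, followed by ISG15 and HERC5, while HERC6, USP18 and UBE2L6 fell by less. Each passed the quasi-likelihood test of edgeR at a p under 0.05 adjusted over all genes tested (Benjamini-Hochberg), while of 24695 genes tested 56.5% were called in either direction and 28.9% were called lower. The 3 DOX-positive values lay below the 3 DOX-negative values for each of the 6 genes, as they did for 32.6% of all genes tested, and for a further 29.8% they lay above. The median log2 fold change of the 6 genes was -0.64, and that of all tested genes was -0.04.

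**Figure D1:**
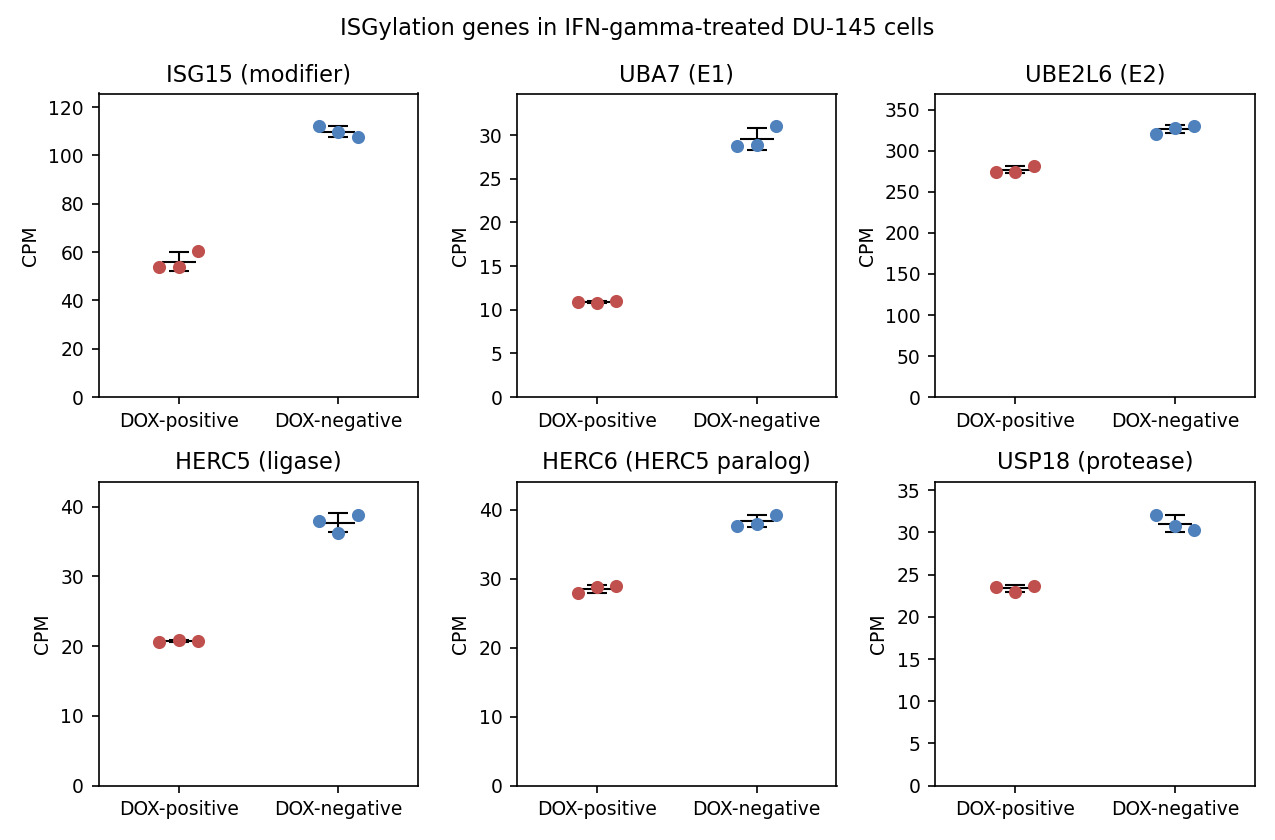
TMM-scaled CPM of each of the 6 ISGylation genes in the 3 DOX-positive and 3 DOX-negative libraries, with a separate vertical axis from 0 for each gene; points are libraries, and bars give the mean and SD. In each panel the DOX-positive points lie below the DOX-negative points, with the smallest gap relative to its level for UBE2L6 (276.9 against 326.2 CPM on average) and the widest for UBA7 (10.9 against 29.5 CPM).

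ISG15 (ENSG00000187608.10, chromosome 1, 1001138 to 1014540, plus strand, GRCh38) encodes the modifier itself. It had 53.9, 53.7 and 60.6 CPM in DOX-positive libraries 1, 2 and 3, against 112.2, 109.7 and 107.5 CPM in DOX-negative libraries 1, 2 and 3. DOX-positive library 3 was the highest of its group and still far below every DOX-negative library. The log2 fold change was -0.97 (SE 0.04, edgeR adjusted p = 8.16e-12), and 10.8% of all tested genes had a more negative one. Of its 941 exonic bases, 36 overlap AL645608.3 on the opposite strand, and the strand setting of the counting is not given in the sources used here. The promoter of ISG15 is shown because it is known for its interferon-stimulated response element (ISRE), a DNA element bound by interferon-activated transcription factors. The bases below are the 250 before the RefSeq start, which lies within the GENCODE span given above (chr1:1013247-1013496, plus strand, RefSeq on GRCh38.p14), with matches in capitals to a pair of GAAA half-sites separated by any 2 bases.
ISG15 promoter: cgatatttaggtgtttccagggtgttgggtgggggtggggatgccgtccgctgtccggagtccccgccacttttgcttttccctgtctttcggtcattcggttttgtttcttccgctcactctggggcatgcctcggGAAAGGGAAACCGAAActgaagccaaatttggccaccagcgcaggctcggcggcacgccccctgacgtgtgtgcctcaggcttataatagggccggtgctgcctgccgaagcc
A pair of matches overlap there, GAAAGGGAAA from 113 to 104 bases before the start and GAAACCGAAA from 107 to 98 bases before it. Both strands of 300-base windows, from 250 bases before to 50 bases after each start, were searched, and 3.57% of 35116 promoters held at least 1 match. RefSeq windows were at hand for 4 of the 6 genes, ISG15, HERC5, HERC6 and UBE2L6. A second motif, the gamma-activated site TTCNNNGAA, was in 7.66% of all promoters and matched in none of the windows of these 4 genes.

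UBA7 (ENSG00000182179.13, chromosome 3, 49805207 to 49813946, minus strand) encodes the only activating enzyme known for ISG15. Its values were 10.9, 10.8 and 11.0 CPM in DOX-positive libraries 1, 2 and 3, against 28.7, 28.8 and 31.0 CPM in DOX-negative libraries 1, 2 and 3. The DOX-positive libraries were nearly identical and all DOX-negative libraries were far above them. The log2 fold change of UBA7 was -1.43 (SE 0.05, edgeR adjusted p = 1.90e-13), the largest fall among the 6 genes, and 4.63% of tested genes had a more negative log2 fold change. The microRNA gene MIR5193 lies within it on the same strand.

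UBE2L6 (ENSG00000156587.16, chromosome 11, 57551656 to 57568284, minus strand) encodes the conjugating enzyme, which can also carry ubiquitin. DOX-positive libraries 1, 2 and 3 had 274.2, 274.5 and 281.9 CPM, against 320.8, 327.8 and 330.1 CPM in DOX-negative libraries 1, 2 and 3. The groups do not overlap although they lie close together. The fall was 1.18-fold (log2 fold change -0.24, SE 0.03, edgeR adjusted p = 4.83e-06), and it came to -0.38 on the log2 scale when libraries were scaled by their size alone. Among all tested genes 37.5% had a more negative log2 fold change. No match to the motif of 2 GAAA half-sites lay in its RefSeq windows, which cover both RefSeq starts. The windows reach to 57568185, short of the GENCODE start at 57568284, and bases beyond them were not searched. The absence of a match says only that these letters are not in the windows.

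HERC5 and HERC6 stand beside each other on chromosome 4 with 14005 bases between them, and their proteins share a HECT ligase domain and repeats like those of RCC1. HERC5 is the main ISG15 ligase of human cells, whereas that role has been described for Herc6 in mouse. HERC5 (ENSG00000138646.9, 88457117 to 88506163, plus strand) had 20.6, 20.9 and 20.8 CPM in DOX-positive libraries 1, 2 and 3, against 38.0, 36.3 and 38.9 CPM in DOX-negative libraries 1, 2 and 3. HERC6 (ENSG00000138642.14, 88378739 to 88443111, plus strand) had 27.9, 28.8 and 29.0 CPM in DOX-positive libraries 1, 2 and 3, against 37.7, 38.0 and 39.3 CPM in DOX-negative libraries 1, 2 and 3. Both genes were lower in every DOX-positive library, HERC5 by a wider margin. The fall was 1.81-fold for HERC5 (log2 fold change -0.86, SE 0.04, edgeR adjusted p = 8.38e-12) and 1.34-fold for HERC6 (log2 fold change -0.42, SE 0.04, edgeR adjusted p = 2.44e-08). The 250 bases before each start (chr4:88456869-88457118 for HERC5 and chr4:88378602-88378851 for HERC6, plus strand, RefSeq on GRCh38.p14) are set side by side, with matches in capitals. They are shown because the ISRE-type motif matched in the HERC5 window and not in the HERC6 window.
HERC5 promoter: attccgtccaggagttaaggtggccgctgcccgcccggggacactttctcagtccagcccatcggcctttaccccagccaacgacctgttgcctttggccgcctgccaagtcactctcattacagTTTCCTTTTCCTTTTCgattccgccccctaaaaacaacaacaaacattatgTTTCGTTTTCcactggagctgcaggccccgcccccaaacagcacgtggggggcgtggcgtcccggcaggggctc
HERC6 promoter: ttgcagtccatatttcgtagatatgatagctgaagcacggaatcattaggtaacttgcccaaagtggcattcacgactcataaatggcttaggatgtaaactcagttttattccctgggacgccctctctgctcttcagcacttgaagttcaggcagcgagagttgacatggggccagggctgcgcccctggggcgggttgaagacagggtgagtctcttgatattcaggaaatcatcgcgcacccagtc
In HERC5 the motif matched 3 times on the minus strand, read on the plus strand as TTTCCTTTTC from 125 to 116 and from 119 to 110 bases before the start, which overlap, and as TTTCGTTTTC from 74 to 65 bases before it. No match lay in the HERC6 window, which says only that these letters are absent from it. The HERC6 window begins at 88378602, close to the GENCODE start at 88378739, and bases before the window were not searched.

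**Figure D2:**
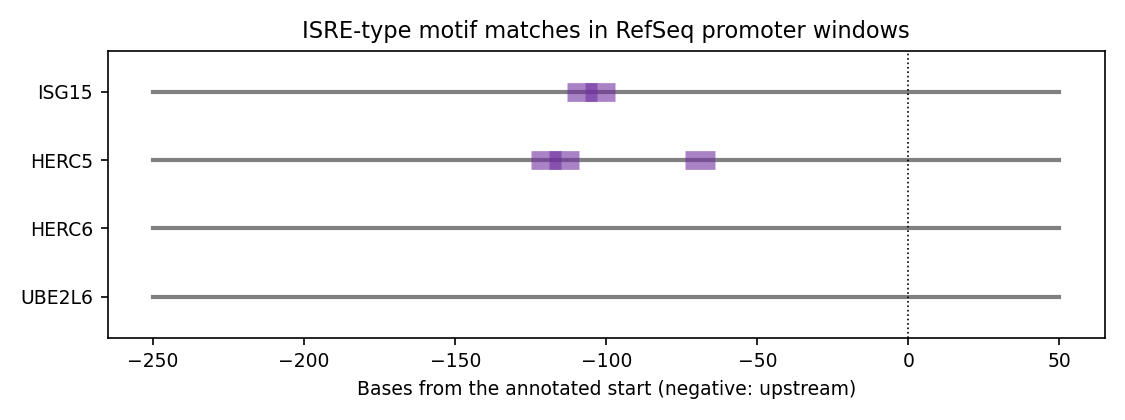
Matches to the ISRE-type motif (purple blocks) in RefSeq windows of ISG15, HERC5, HERC6 and UBE2L6, drawn by distance in bases from the annotated start (dotted line, negative upstream); grey lines are the windows searched, and UBE2L6 has 2 windows without a match that share 1 line. ISG15 holds 2 overlapping matches, HERC5 holds 3, and HERC6 and UBE2L6 hold 0.

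USP18 (ENSG00000184979.10, chromosome 22, 18149899 to 18177397, plus strand) encodes the protease that takes ISG15 off its targets. Its level was 23.6, 22.9 and 23.7 CPM in DOX-positive libraries 1, 2 and 3, against 32.1, 30.8 and 30.3 CPM in DOX-negative libraries 1, 2 and 3. The groups were clear of each other, and the fall was 1.33-fold (log2 fold change -0.41, SE 0.04, edgeR adjusted p = 1.06e-07). USP18 has a near-identical copy, USP41, also on chromosome 22, and 23.0% of the 50-base stretches in USP18 transcripts occur in USP41 transcripts (GENCODE 29). USP41 itself had 50, 74 and 24 reads in DOX-positive libraries 1, 2 and 3, against 28, 84 and 40 reads in DOX-negative libraries 1, 2 and 3, with no difference called (log2 fold change -0.07, edgeR adjusted p = 0.858). With the reads of both summed, the log2 fold change of USP18 was -0.40. Of the other 5 genes, UBA7 shared 1.24% of its 50-base stretches with another gene, HERC6 shared 0.527%, and ISG15, UBE2L6 and HERC5 shared 0.

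Levels of the 6 genes were compared with each other per length, as TMM-scaled CPM per kilobase of the deposited gene length. UBE2L6 was highest, at 134.3 ± 2.14 CPM per kilobase in DOX-positive cells and 158.2 ± 2.33 CPM per kilobase in DOX-negative cells (SD, n = 3 each). ISG15 came next at 64.6 ± 4.54 in DOX-positive and 126.6 ± 2.70 in DOX-negative cells, and USP18 followed at 12.6 ± 0.227 in DOX-positive and 16.7 ± 0.516 in DOX-negative cells. The HERC genes and UBA7 were the lowest and their order differed between the groups. In DOX-positive cells HERC6 (4.93 ± 0.0982) stood above HERC5 (4.36 ± 0.0359) and UBA7 was last (2.40 ± 0.0267), with no overlap between neighbours. In DOX-negative cells HERC5 (7.91 ± 0.277) stood above HERC6 (6.62 ± 0.149), and the libraries of HERC6 and UBA7 (6.49 ± 0.284) overlapped. All 6 ranks in each group were the same with library size alone, with upper-quartile scaling and as TPM.

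**Figure D3:**
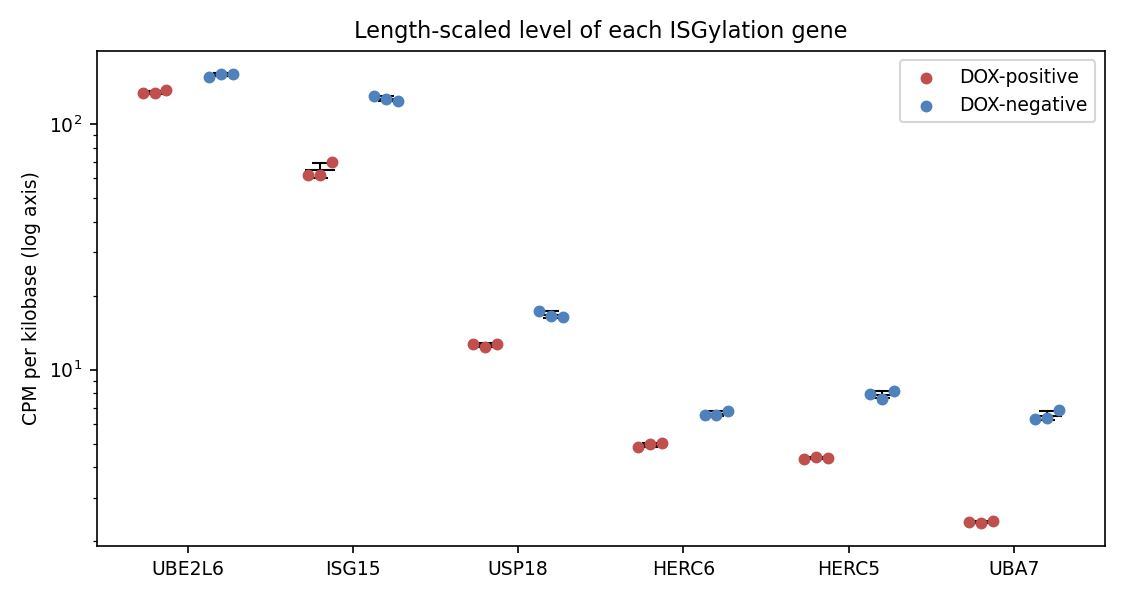
CPM per kilobase of gene length (log axis) for the 6 genes, ordered by their level in DOX-positive cells, with the DOX-positive libraries left of the DOX-negative libraries; points are libraries and bars give the mean and SD. UBE2L6 and ISG15 lie above the other genes in both groups, and HERC5 and HERC6 exchange places.

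As a share of the summed level per kilobase of the 6 genes, UBE2L6 took 60.6%, 60.8% and 59.2% in DOX-positive libraries 1, 2 and 3, against 48.2%, 49.3% and 49.7% in DOX-negative libraries 1, 2 and 3. ISG15 took 28.3%, 28.3% and 30.2% in DOX-positive libraries 1, 2 and 3, against 40.0%, 39.2% and 38.5% in DOX-negative libraries 1, 2 and 3. The conjugating enzyme thus made up more of the machinery's mRNA, and the modifier less, in each DOX-positive library.

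The unequal falls changed the ratios between the genes, which do not depend on how libraries are scaled against each other. The ratio of ISG15 to USP18, modifier to protease, had log2 values (CPM over CPM) of 1.19, 1.23 and 1.35 in DOX-positive libraries 1, 2 and 3, against 1.80, 1.83 and 1.83 in DOX-negative libraries 1, 2 and 3. It was lower by 1.48-fold. For UBA7 to UBE2L6, the first enzyme of the cascade to the second, the log2 ratio was -4.64, -4.67 and -4.67 in DOX-positive libraries 1, 2 and 3, against -3.48, -3.51 and -3.41 in DOX-negative libraries 1, 2 and 3. This was the pair with the largest change, 2.29-fold lower. HERC5 to HERC6 had a log2 ratio of -0.44, -0.46 and -0.48 in DOX-positive libraries 1, 2 and 3, against 0.0092, -0.066 and -0.017 in DOX-negative libraries 1, 2 and 3. HERC5 thus had about as many reads as its neighbour in DOX-negative cells and fewer in DOX-positive cells.

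Over the 15 pairs, the ratio of 9 was lower and of 4 was higher in all DOX-positive libraries, and 2 overlapped between the groups. Swapping the 2 genes of a pair turns lower into higher, so the split between directions is set by the order of naming. Ratios between other genes were not examined. Of all tested genes taken singly, 32.6% lay clear on the lower side and 29.8% on the higher side. The overlapping pairs were HERC6 to USP18, with mean log2 ratios of 0.29 ± 0.04 in DOX-positive and 0.30 ± 0.07 in DOX-negative cells, and ISG15 to HERC5, with 1.43 ± 0.10 in DOX-positive and 1.54 ± 0.07 in DOX-negative cells (SD, n = 3 each). Two-sided exact permutation tests gave p = 0.1 for each pair that did not overlap, the smallest that 3 against 3 libraries allow, or 0.115 when adjusted over the 15 pairs. For the overlapping pairs exact permutation gave p = 0.9 and 0.2 in the order named, which does not show that the ratios were equal. The pairs share genes and are not independent.

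**Figure D4:**
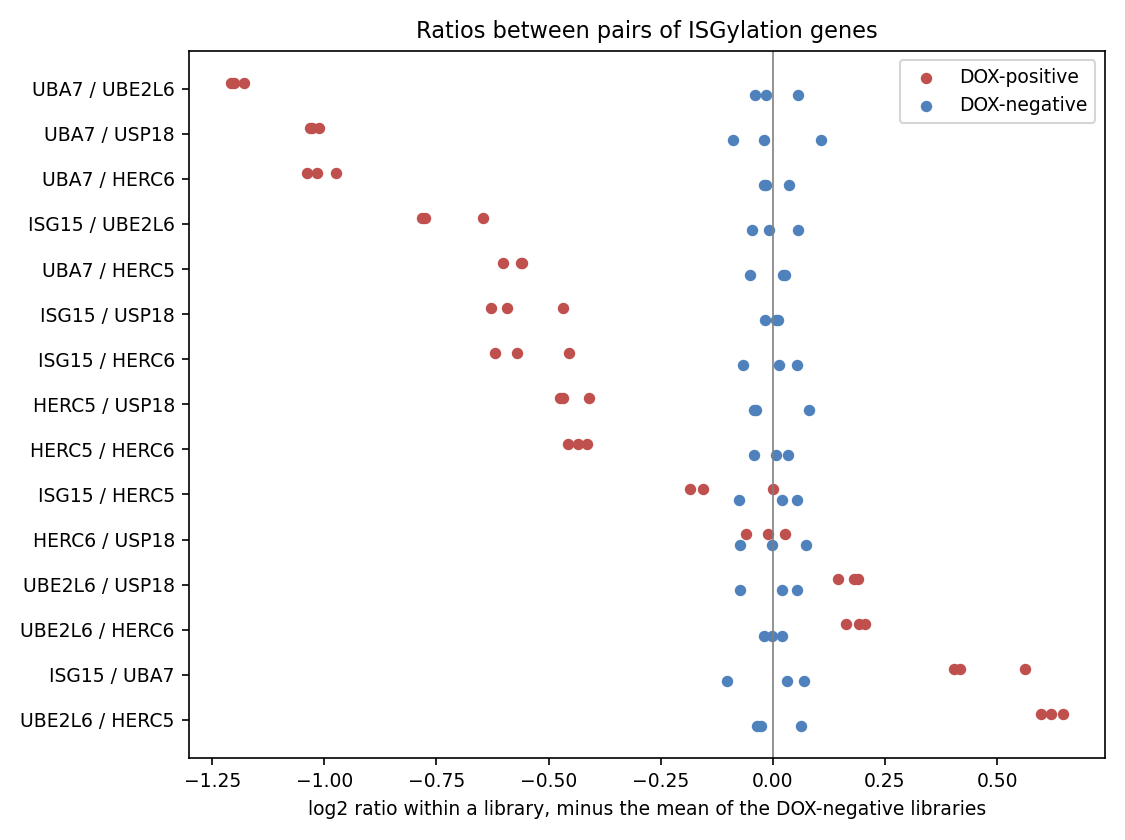
Log2 ratio of CPM within a library for the 15 pairs of ISGylation genes, drawn relative to the mean of the DOX-negative libraries of each pair, with DOX-positive points above DOX-negative points in each row. The DOX-positive points are clear of the DOX-negative points except for ISG15 to HERC5 and HERC6 to USP18.

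Other enzymes that handle ISG15 went both ways, while of all tested genes 27.6% were called higher and 28.9% lower. Of 7 listed, TRIM25 and ARIH1 (ligases) and USP2, USP5, USP13, USP14 and USP21 (proteases reported to act on ISG15), 3 were called higher and 2 lower, or 1 and 3 with library size alone, and the median log2 fold change was 0.05. TRIM25, which also ubiquitinates the RNA sensor RIG-I, averaged 173.2 ± 1.11 CPM in DOX-positive and 251.5 ± 5.79 CPM in DOX-negative cells (log2 fold change -0.54, SE 0.03, edgeR adjusted p = 3.27e-10). USP2 averaged 6.75 ± 0.430 CPM in DOX-positive and 4.43 ± 0.248 CPM in DOX-negative cells, a log2 fold change of 0.61. The calls on USP21 (0.12 on the log2 scale) and USP13 (0.08) depended on the settings, and their changes were -0.028 and -0.061 with library size alone. Neither passed with upper-quartile scaling (edgeR adjusted p = 0.206 and 0.546) or with at least 1 CPM required in 3 libraries (0.0714 and 0.150). USP13 also did not pass with the replicate number as a block (edgeR adjusted p = 0.0551) or by limma-voom (limma adjusted p = 0.0559). With 1 library fewer the changes stayed close to 0.12 and 0.08 while some calls were lost. USP21 was at 0.11 (edgeR adjusted p = 0.0541) without DOX-positive replicate 2 and at 0.099 (0.0734) without DOX-positive replicate 3. USP13 was at 0.094, 0.091 and 0.085 (edgeR adjusted p = 0.0549, 0.0722 and 0.0830) without DOX-positive replicate 1, 2 or 3, and at 0.081 (0.111) without DOX-negative replicate 3. Of the LFA-1 chains, ITGB2 rose to 68.9 ± 0.609 CPM in DOX-positive cells, against 43.0 ± 0.930 CPM in DOX-negative cells (log2 fold change 0.68, SE 0.03, edgeR adjusted p = 1.36e-11), while ITGAL had at most 6 reads in a library and was not tested.

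Of the 3 tested HERC family members outside the machinery, 2 were called higher and 1 lower, or 1 and 1 with library size alone. Among all tested genes 27.6% were called higher and 28.9% lower. HERC4 averaged 375.7 ± 8.42 CPM in DOX-positive and 237.0 ± 3.85 CPM in DOX-negative cells, 0.67 higher on the log2 scale (SE 0.03, edgeR adjusted p = 2.12e-11). HERC1 had a log2 fold change of 0.17, which did not pass with library size alone (0.028, edgeR adjusted p = 0.527), and HERC2 had one of -0.10. The call on HERC2 was lost with DESeq2 size factors (-0.071, edgeR adjusted p = 0.170), with no filter (-0.079, 0.0778) and by the DESeq2 Wald test (-0.071, 0.0965). It was also lost, with the log2 fold change between -0.093 and -0.073, without DOX-positive replicate 1 (edgeR adjusted p = 0.0633), DOX-positive replicate 2 (0.112), DOX-negative replicate 1 (0.156) or DOX-negative replicate 3 (0.113). HERC3 had between 1 and 14 reads per library and was not tested, and it shares 459 exonic bases with AC098582.1 on the same strand, so its count is uncertain. Of 5 genes related to the members by sequence, USP41 and UBA6 included, 3 were called higher and 1 lower, or 1 and 1 with library size alone. UBA1, the main activating enzyme of ubiquitin, rose by 0.19 on the log2 scale (0.048, not passing, if scaled by library size alone), and UBE2L3, which resembles UBE2L6, had one of 0.08 (edgeR adjusted p = 0.0497, and -0.060 on the log2 scale with library size alone). Without DOX-positive replicate 1, 2 or 3, UBE2L3 kept log2 fold changes of 0.10, 0.094 and 0.077 but did not pass (edgeR adjusted p = 0.0521, 0.0855 and 0.129), and without DOX-negative replicate 2 it was at 0.055 (0.131). UBE2L5 averaged 1.33 ± 0.332 CPM in DOX-positive and 0.823 ± 0.206 CPM in DOX-negative cells (log2 fold change 0.69, edgeR adjusted p = 0.0123), and 0.47 on the log2 scale without DOX-positive replicate 2 (0.106).

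The parallel cascades of other ubiquitin-like modifiers were set beside these values. Each count below stands beside the share of all tested genes, of which 27.6% were called higher and 28.9% lower. For NEDD8, which activates cullin ligases, 8 of 8 genes were called higher, or 5 of 8 with library size alone. NEDD8 itself averaged 17.3 ± 0.430 CPM in DOX-positive and 12.5 ± 0.659 CPM in DOX-negative cells (log2 fold change 0.47), and its activating subunits UBA3 and NAE1 and its conjugating enzyme UBE2M had log2 fold changes of 0.34, 0.22 and 0.23. For SUMO, 7 of 16 genes were called higher and 6 lower, or 4 and 9 with library size alone. SUMO3 (0.36) and the activating subunit SAE1 (0.32) rose, and the ligase PIAS2 fell by 0.27 on the log2 scale. For UFM1, a modifier of ribosomes at the endoplasmic reticulum, 2 of 8 genes were called higher and 3 lower, or 2 and 4 with library size alone. Its conjugating enzyme UFC1 rose by 0.43 on the log2 scale, and the ligase UFL1 (-0.32) and its partner CDK5RAP3 (-0.55) fell, though AC018521.1 overlaps CDK5RAP3 on the same strand and its count is uncertain. For FAT10, the other interferon-inducible modifier, the gene UBD had at most 3 reads in a library and was not tested, and its enzymes UBA6 and UBE2Z both fell (log2 fold changes -0.48 and -0.64, edgeR adjusted p = 1.09e-08 and 4.36e-11). Among ubiquitin genes with UBA1, 3 of 5 were called higher and 1 lower, or 1 and 2 with library size alone. UBB, the gene called lower, overlaps AC093484.3 on the opposite strand. UBB had a log2 fold change of -0.23, and did not pass at -0.18 without DOX-positive replicate 2 (edgeR adjusted p = 0.137), at -0.21 without DOX-positive replicate 3 (0.0962) or at -0.076 without DOX-negative replicate 2 (0.260). With all libraries it did not pass by the DESeq2 Wald test either, at -0.19 (DESeq2 adjusted p = 0.229).

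**Figure D5:**
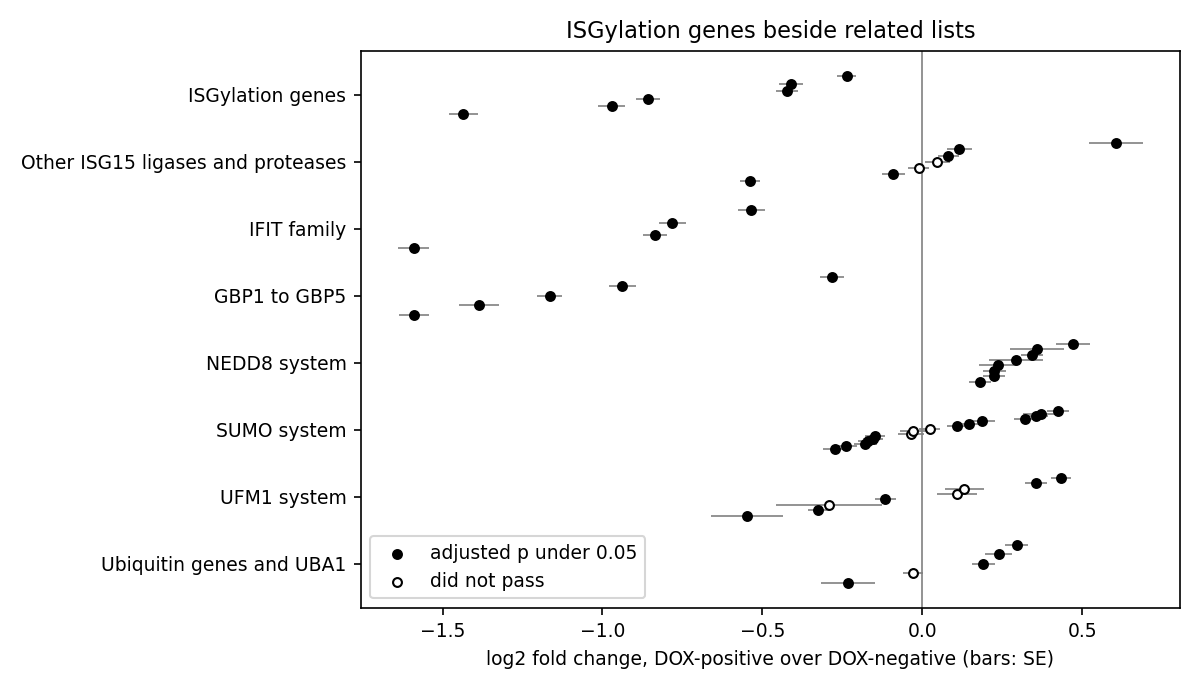
Log2 fold change, DOX-positive over DOX-negative, of each tested gene (points, with SE bars) in the ISGylation machinery and in 7 related lists; filled points passed the edgeR test at an adjusted p under 0.05. The 6 ISGylation genes lie from -1.43 to -0.24, left of 0 like the IFIT and GBP genes, and the NEDD8 genes lie right of 0.

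Most genes of a list for type I interferon and IFN-gamma signalling were lower, and their part in the fall of the 6 genes was not tested. Of 13 receptor, kinase, STAT and IRF genes, 10 were called lower and 3 higher, or 10 and 2 with library size alone, against 28.9% lower and 27.6% higher of all genes tested. Among those called lower, IRF9 shares 48.4% of its exonic bases with AL136295.5 on the same strand, and IFNAR2 shares 44.2% with AP000295.1. Both had low levels and their counts are uncertain. The median of the list was -0.47 on the log2 scale. STAT2, a transcription factor of interferon signalling that acts at the ISRE, averaged 163.4 ± 0.890 CPM in DOX-positive and 303.8 ± 5.34 CPM in DOX-negative cells (log2 fold change -0.89). IRF7, an interferon-induced transcription factor, averaged 13.9 ± 0.327 CPM in DOX-positive and 30.1 ± 1.11 CPM in DOX-negative cells (log2 fold change -1.11), and IFNGR1, a chain of the IFN-gamma receptor, fell by 1.21 on the log2 scale. The other chain of that receptor, IFNGR2, was higher, at 66.1 ± 2.51 CPM in DOX-positive and 54.6 ± 0.509 CPM in DOX-negative cells (log2 fold change 0.27, edgeR adjusted p = 2.41e-06). JAK1, a kinase of both interferon receptors, rose by 0.64. Beside other interferon-induced families, the median log2 fold change was -0.64 for the 6 ISGylation genes, -0.81 for IFIT1, IFIT2, IFIT3 and IFIT5, and -1.17 for GBP1 to GBP5, all of whose members were called lower. The ranges overlapped, with IFIT5 (-0.53) and GBP3 (-0.28) among the genes that fell least and IFIT1 (-1.59) and GBP4 (-1.59) among those that fell most, and a difference between the families was not tested.

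Genes for proteins reported as ISG15 substrates had no common direction. The list shares genes, JAK1, IRF3 and IFIT1 among them, with the lists above. Of 18 listed, 17 were tested, 9 were called lower and 7 higher, or 10 and 4 with library size alone, against 28.9% and 27.6% of all genes tested, and the median log2 fold change was -0.11. The antiviral GTPase MX1 averaged 50.6 ± 0.987 CPM in DOX-positive and 160.4 ± 2.72 CPM in DOX-negative cells (log2 fold change -1.66), IFIT1 fell by 1.59 and the phospholipase PLCG1 by 0.81 on the log2 scale.

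The protein-coding genes that flank the 6 genes in GENCODE 29 changed in both directions. Beside ISG15, HES4, 965 bases away, rose (log2 fold change 0.42, edgeR adjusted p = 2.12e-05), and AGRN, which encodes the matrix protein agrin, fell by 0.23. On either side of the HERC5 and HERC6 pair, PYURF rose by 0.49 and PPM1K had a log2 fold change of -0.04 (edgeR adjusted p = 0.627), between -0.12 and 0.034 when each library was left out. PPM1K, 93969 bases from HERC6, was called lower with library size alone (-0.19 on the log2 scale, edgeR adjusted p = 0.0309). Next to UBE2L6, SERPING1, the inhibitor of complement C1, averaged 51.5 ± 2.51 CPM in DOX-positive and 137.2 ± 5.30 CPM in DOX-negative cells (log2 fold change -1.41, edgeR adjusted p = 4.56e-14), and SMTNL1 fell by 1.13. Beside UBA7, INKA1 had 0.293 ± 0.0582 CPM in DOX-positive and 0.174 ± 0.00310 CPM in DOX-negative cells (edgeR adjusted p = 0.0595), and TRAIP had a log2 fold change of 0.26. TRAIP did not pass at 0.12 with library size alone (edgeR adjusted p = 0.242), at 0.20 with upper-quartile scaling (0.0506), at 0.25 without DOX-positive replicate 2 (0.0567) or at 0.23 without DOX-negative replicate 2 (0.0598). TUBA8, next to USP18, had 0.405 ± 0.0554 CPM in DOX-positive and 0.862 ± 0.118 CPM in DOX-negative cells (log2 fold change -1.09), and GGTLC3 on the other side was not tested.

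The genes most like ISG15 were sought by the Euclidean distance between mean-centred log2 CPM profiles over the 6 libraries, among 9757 genes with a mean of at least 10 CPM. The nearest 5 were SFMBT2, GBP2, PIR, NR1D1 and AIF1L, at distances of 0.0868 to 0.112, with log2 fold changes of -0.97 to -0.93. Within the machinery HERC5 was nearest to ISG15 at 0.218, and UBE2L6 was farthest at 0.910. The 5 genes nearest to the mean profile of the 6 genes were SMYD2, GPR155, FJX1, SP110 and SERBP1, at distances of 0.0209 to 0.0386.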

How the data were processed

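Counts per gene and library, not normalized, were deposited by the authors for 60662 genes with a gene length in bases. CASAVA 1.8.2, STAR 2.7.9a, DESeq2 1.24.0 and GRCh38.p7 stand in the submitters' processing notes without a role. Which tool, annotation and strand setting served for counting is not given in the sources used here, so values of overlapping genes and near-identical copies are uncertain. Libraries were TruSeq Stranded mRNA, per the labels' protocols. Groups and replicate numbers came from sample titles. The labels speak of triplicate cultures only, so the p-values reflect only the spread among these samples, which may be technical. No 2 libraries agreed within sampling noise (chi-square per degree of freedom 6.40 to 20.8 within and 213.8 to 285.2 across groups, over genes with 20 or more reads in both together). A count of 3 reads corresponds to 0.0204 to 0.0328 CPM, for counting error only.

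Tests were edgeR 4.0.16 quasi-likelihood (R 4.3.3) of DOX-positive over DOX-negative with no covariate, TMM scaling, filterByExpr (minimum count 10, total 15; 24695 genes kept) and Benjamini-Hochberg adjustment over all genes tested at 0.05. The procedure was run on simulated counts in which few genes changed, unlike here, so that run does not bear on the choice of scaling. SE is the absolute log2 fold change over the square root of F. CPM use TMM-scaled libraries, and log2 CPM for ratios and profiles a prior count of 2. Positions, neighbours and transcripts came from GENCODE 29 (GRCh38), and promoters from RefSeq (GRCh38.p14). Alternatives were other scalings, filters, DESeq2 1.42.0, limma-voom (limma 3.58.1), the replicate number as a block, each library left out, and for ratios a prior count of 0.5. Figures used matplotlib 3.10.9.

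The named genes are the 6 members, MUC1, the HERC family, paralogs, receptor and FAT10 genes, up to 4 genes of each other list with the smallest p, the flanking protein-coding genes and the 5 nearest profiles. ARIH1, USP5, USP14 and the other markers are named besides as list contents, and AL645608.3, AC093484.3, MIR5193, AC098582.1, AC018521.1 and GBP3 were named after their values or positions were seen. So were IRF9, IFNAR2, IFNGR2, AL136295.5 and AP000295.1. Of what this rule and the lists cover, some genes are not reported here. The members and lists were chosen with earlier results of these data known.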

Additional observations from a re-analysis of the deposited data

How the results depend on the processing

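The calls and directions of the 6 ISGylation genes held under each alternative run (14 per gene, and 15 for USP18). Their log2 fold changes ranged from -1.11 to -0.93 for ISG15, -1.58 to -1.38 for UBA7, -0.38 to -0.21 for UBE2L6, -1.002 to -0.82 for HERC5, -0.57 to -0.38 for HERC6 and -0.55 to -0.36 for USP18. Over all genes, 6825 were called higher and 7132 lower, against 4689 and 9579 with library size alone, a setting that shifted the median log2 fold change by -0.14. Leaving out each library gave between 12807 and 13413 calls. Of the pair ratios, only HERC6 to USP18 changed sign, between -0.051 and 0.022 when each library was left out. Of 68 other named genes, 56 kept direction and call under each alternative. With library size alone USP13 (-0.061), USP21 (-0.028) and UBE2L3 (-0.060) changed sign on the log2 scale, and leaving out each library gave between -0.27 and 0.21 for USP41 and between -0.12 and 0.034 for PPM1K; the cause was not tested. With the replicate number as a block, 13503 genes were called and all 6 ISGylation genes were among them. Same-numbered libraries showed correlations of -0.07, -0.03 and 0.0099 between their deviations from the group means. Not every library correlated best with its own number. With 3 libraries per group these values cannot show whether the cultures were made in pairs, and the labels do not say. Depth limits USP41, UBD, ITGAL and HERC3, which had at most 84 reads in a library.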
